A study of Mus musculus with 6 samples.

Results

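Hemoglobin genes were examined in RNA-seq libraries of the mouse primary somatosensory cortex, whose tissue can hold blood after dissection. Hemoglobin chains are best known from red cells, and which cells the transcripts came from was not tested. The members were 7 genes taken by symbol: the adult beta chain genes Hbb-b1, Hbb-b2, Hbb-bs and Hbb-bt, the adult alpha chain genes Hba-a1 and Hba-a2, and Alas2, the red cell enzyme of the first step of heme synthesis. Of these, 6 had a row among the 14824 genes of the table, and Hbb-b2 was not analysed here. The set was chosen by a measured value, the spread of Hbb-b1 counts between libraries, so that spread is described below without a test.

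The study compared cortex of wild-type (WT) C57B6 mice at 21 days of age after daily whisker stimulation (WS, 3 libraries) with cortex without stimulation (NS, 3 libraries, titled NW control). RNA was taken 90 min after the last session. The methods state that the whiskers of the right side were brushed. The paper's outline of the stimulation takes the unstimulated side of the barrel cortex as the NS control. Its lactate assay also compares both sides within a brain. A heatmap legend of the RNA-seq gives 3 WS and 3 NS, and 3 male mice. The cell type label names neurons, glia, endothelial cells and pericytes, and no blood cell. The labels do not tie an NS and a WS library of the same number to one animal, so p-values measure the spread between these libraries only. Tests without the replicate block treat the libraries as independent.

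Between 15660395 and 17276168 counts were recovered per library. The markers of cortical neurons (Snap25, Rbfox3, Slc17a7 and Gad1) summed to 5324 to 5797 counts per 1000000 counts of the library (CPM), and those of choroid plexus (Kl and Folr1) ranged from 4.80 to 49.9 CPM. Whether choroid plexus tissue bears on any hemoglobin value was not tested. Both libraries numbered 2 stood apart from the other 4 in the beta chain genes, and the sums, the shares, the levels per kilobase and the comparison of the groups are also given without them.

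Adult hemoglobin is a tetramer of paired alpha and beta chains, and each chain carries a heme group that binds oxygen. The genes are read in red cell precursors under the factors GATA1 and KLF1, and the circulating red cell, which in mammals has lost its nucleus, keeps some of the messenger RNA for a time. The alpha genes lie in a cluster on mouse chromosome 11 and the beta genes in a cluster on chromosome 7. Laboratory strains differ at the beta cluster: Hbb-bs and Hbb-bt are the adult pair of the single (Hbb-s) haplotype, which C57BL/6 carries, while Hbb-b1 and Hbb-b2 are the adult pair of the diffuse (Hbb-d) haplotype.

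The copies within each pair compared here are nearly the same in coding sequence, which bears on the chain counts below. In the GENCODE M21 transcripts on GRCm38, Hba-a1 and Hba-a2 shared 428 of 429 coding bases and differed only by C381T, counted from the A of the start codon with the Hba-a1 base first. Likewise Hbb-bs and Hbb-bt shared 443 of 444 coding bases and differed only by C417T, with the Hbb-bs base first. Both changes leave the encoded residue the same. These stretches of coding exon 3 are shown because they hold the only coding base that separates the copies of each pair, which is in capitals. They lie at chr11:32284313-32284373 (plus strand), chr11:32297130-32297190 (plus strand), chr7:103826668-103826722 (minus strand) and chr7:103812659-103812713 (minus strand), in the order given.
Hba-a1: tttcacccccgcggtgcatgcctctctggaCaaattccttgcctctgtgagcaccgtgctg
Hba-a2: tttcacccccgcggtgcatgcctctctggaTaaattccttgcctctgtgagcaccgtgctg
Hbb-bs: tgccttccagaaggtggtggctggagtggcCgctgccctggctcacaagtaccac
Hbb-bt: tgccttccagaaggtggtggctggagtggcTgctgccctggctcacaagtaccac
A read that lay within the coding bases and missed that base could not be told apart between the copies of a pair. Bases outside the coding part were not compared. The deposited mean times 6 was not a whole number for any of the 5 chain genes (3359.772 for Hbb-b1). For Alas2 it was 580.002, a whole number within the rounding of the deposited mean. Splits within the alpha pair and among the beta genes are therefore uncertain, and sums over a chain are less so. GENCODE M21 placed no Hbb-b1 gene on GRCm38, and no sequence of it is shown.

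The bases before the start site are shown for Hbb-bs, Hbb-bt and Hba-a1 because the data compare the levels of these alpha and beta genes, which lie in separate clusters. RefSeq start sites on GRCm38.p6 were used, and 5 of the 7 members had an entry. Each window is 250 bases long and ends just before the start site, at chr7:103827929-103828178 (minus strand), chr7:103813924-103814173 (minus strand) and chr11:32283422-32283671 (plus strand). Capitals mark GATAA (the GATA factor core), CACCC (the core bound by KLF1 and its relatives), CCAAT and TATAA on either strand, and no base is in more than 1 match.
Hbb-bs: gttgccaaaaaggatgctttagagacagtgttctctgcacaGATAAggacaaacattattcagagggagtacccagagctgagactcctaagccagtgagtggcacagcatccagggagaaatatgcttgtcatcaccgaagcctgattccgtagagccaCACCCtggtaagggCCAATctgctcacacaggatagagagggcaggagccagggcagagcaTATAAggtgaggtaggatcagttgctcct
Hbb-bt: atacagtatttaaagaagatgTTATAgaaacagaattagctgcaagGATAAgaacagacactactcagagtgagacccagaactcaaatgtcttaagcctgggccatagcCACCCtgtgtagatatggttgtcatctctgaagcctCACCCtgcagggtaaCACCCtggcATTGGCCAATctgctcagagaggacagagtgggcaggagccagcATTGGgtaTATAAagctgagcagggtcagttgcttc
Hba-a1: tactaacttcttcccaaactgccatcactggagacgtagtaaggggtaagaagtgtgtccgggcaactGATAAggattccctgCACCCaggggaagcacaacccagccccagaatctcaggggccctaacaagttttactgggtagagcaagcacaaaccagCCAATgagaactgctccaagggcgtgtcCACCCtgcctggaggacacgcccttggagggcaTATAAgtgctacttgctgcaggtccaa
All 3 windows held each of the 4 motifs. The TATAA nearest to the start began 29, 28 and 27 bases before it, in the same order. Short motifs are common: of 32851 windows of the same length before mouse genes, 22.6% held GATAA, 52.0% CACCC, 33.9% CCAAT and 22.8% TATAA. The windows of Hba-a1 and Hba-a2 aligned over 247 bases without a mismatch, whereas 185 of 239 aligned bases were the same in Hbb-bs and Hbb-bt. A match describes these letters and shows no binding.

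The alpha chain genes were the most evenly counted of the chain genes. Hba-a1 had 2650, 2963 and 4473 counts in NS 1, 2 and 3, and 3557, 3625 and 3644 counts in WS 1, 2 and 3. For Hba-a2, NS 1 to NS 3 held 1834, 1949 and 2815 counts, and WS 1 to WS 3 held 2548, 2303 and 2301. NS 3 was the highest and NS 1 the lowest library for both genes, and all WS values lay between them. Hba-a1 made up 58.3% to 61.4% of the alpha counts in every library.

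Among the beta chain genes, Hbb-bs had the most counts over the 6 libraries, with 2747, 1532 and 4233 counts in NS 1, 2 and 3 and 3471, 1807 and 3447 counts in WS 1, 2 and 3. Hbb-bt, the minor gene of the same pair, had 365, 221 and 708 counts in NS 1 to NS 3, beside 511, 257 and 549 in WS 1 to WS 3. For both genes the lowest library of each group was the one numbered 2, and the groups overlapped. Hbb-bt gave 11.7% to 14.3% of the summed counts of the pair, and this share in the libraries numbered 2 (12.6% and 12.5%) lay within the range of the other 4.

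Hbb-b1 ran the other way. It had 1545 counts in NS 2 and 1724 in WS 2, but 3, 8 and 5 counts in NS 1, NS 3 and WS 1, and 74 counts in WS 3. The rounding of the deposited values leaves each of these uncertain by up to 0.419 counts. The 2 high libraries belonged to different groups and shared the number 2. In them Hbb-b1 made up 46.8% (95% Wilson interval 45.1% to 48.6%) and 45.5% (43.9% to 47.1%) of all beta chain counts. In NS 1, NS 3 and WS 1 the share was 0.0963% (0.0328% to 0.283%), 0.162% (0.0819% to 0.319%) and 0.125% (0.0536% to 0.293%), and in WS 3 it was 1.82% (1.45% to 2.28%). The intervals cover counting error only. WS 3 lay between the 3 lowest libraries and those numbered 2.

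**Figure D1:**
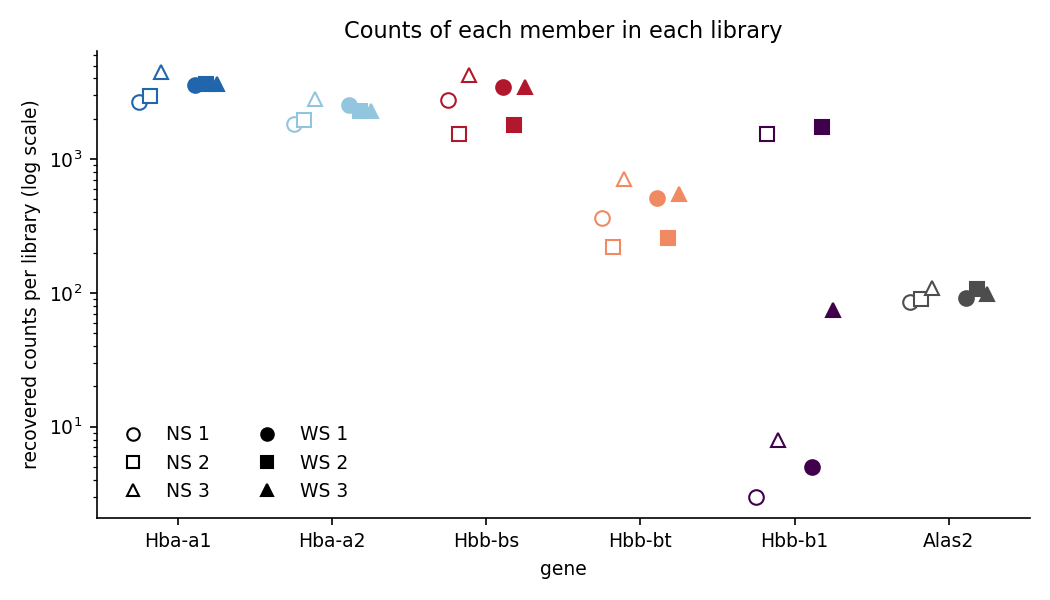
Recovered counts per library (log scale) of the 6 members, with open symbols for NS, filled symbols for WS and 1 symbol shape per library number. Hbb-b1 sits at 1545 and 1724 counts in the libraries numbered 2 (squares) and at 3 to 74 counts in the others, while Hbb-bs and Hbb-bt are lowest in the same 2 libraries.

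Alas2, which is expressed in red cell precursors and not encoded near either globin cluster (chromosome X), had 86, 90 and 109 counts in NS 1, 2 and 3 and 91, 106 and 98 counts in WS 1, 2 and 3. It was the steadiest member, with a coefficient of variation of 9.99% over the 6 libraries, against 15.1% for Hba-a2, 17.9% for Hba-a1, 36.2% for Hbb-bs, 43.0% for Hbb-bt and 149% for Hbb-b1. Per kilobase of transcript, the levels ran in the order Hba-a1 (mean 309 CPM per kilobase, range 239 to 397), Hbb-bs (283, 152 to 419), Hba-a2 (256, 209 to 316), Hbb-bt (38.3, 19.6 to 62.6) and Alas2 (2.94, 2.65 to 3.32). Without the libraries numbered 2, Hbb-bs was first (mean 342, range 276 to 419), ahead of Hba-a1 (317, 239 to 397), Hba-a2 (265, 209 to 316), Hbb-bt (46.9, 32.7 to 62.6) and Alas2 (2.92). The order of the first 3 is thus not settled, as they overlapped in range either way, and Hbb-bt and Alas2 lay below them and apart from each other. Lengths were those of GENCODE M21 transcripts, 699 bases for Hba-a1 and 554 for Hba-a2. GENCODE places the start of the Hba-a1 gene at chr11:32283511, inside the window shown before its RefSeq start. A shorter Hba-a1 length would raise its level, so its place in the order also depends on the annotation. No length was at hand for Hbb-b1.

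The spread of each member was compared with that of all genes tested, as a description. The SD of log2 CPM between libraries of the same group was 4.55 for Hbb-b1, which ranked 1 of 13747 genes. It was 0.73 for Hbb-bt, 0.64 for Hbb-bs, 0.28 for Hba-a1, 0.23 for Hba-a2 and 0.16 for Alas2, at ranks 205, 293, 1963, 2844 and 5579. The median over all genes tested was 0.14 and the value below which 95% of genes lay was 0.47. The beta genes were thus above that value and the alpha genes and Alas2 below it.

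**Figure D2:**
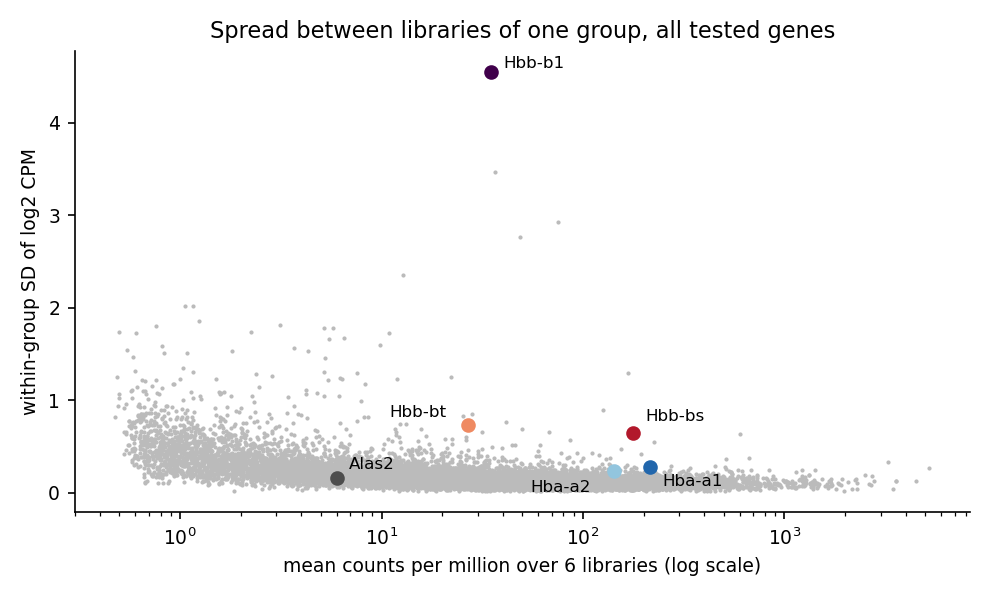
Within-group SD of log2 CPM (SD between the 3 libraries of a group, pooled over NS and WS) against mean CPM over 6 libraries (log scale); grey points are the 13747 genes tested. Hbb-b1 is the highest point at 4.55, Hbb-bt and Hbb-bs lie at 0.73 and 0.64, and the alpha genes and Alas2 lie within the grey cloud.

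Once the 3 beta genes were added together, the libraries numbered 2 lay within the range of the rest. Beta chain counts summed to 196, 206 and 307 CPM in NS 1, 2 and 3 and to 236, 234 and 257 CPM in WS 1, 2 and 3. Alpha chain counts summed to 283, 307 and 453 CPM in NS 1 to NS 3, beside 362, 367 and 375 CPM in WS 1 to WS 3. NS 3 was highest and NS 1 lowest on both sums.

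**Figure D3:**
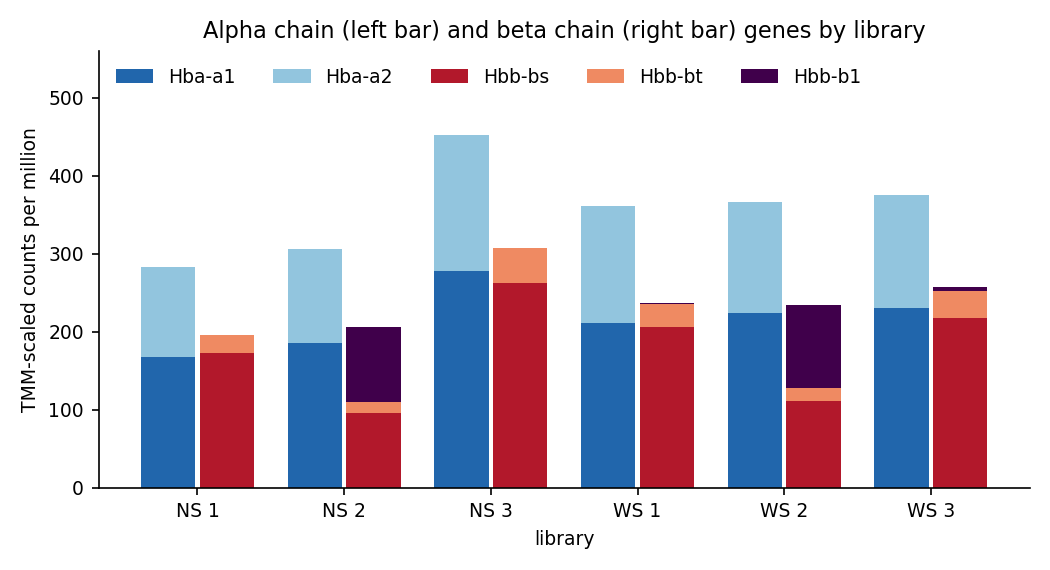
Alpha chain genes (left bar of each pair) and beta chain genes (right bar) in CPM for each library, stacked by gene. The beta bars of NS 2 and WS 2 reach 206 and 234 CPM, within the 196 to 307 CPM of the other libraries, with Hbb-b1 as the upper segment.

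The beta share of all hemoglobin counts was 41.0%, 40.2% and 40.4% in NS 1, 2 and 3 and 39.5%, 39.0% and 40.6% in WS 1, 2 and 3. The groups overlapped, with a mean of 40.5% ± 0.419 (SD, n = 3) in NS and 39.7% ± 0.845 (SD, n = 3) in WS. The difference of -0.82 percentage points was within the spread (exact permutation test, two-sided, p = 0.3), and 3 libraries against 3 allow no p under 0.1. Without both libraries numbered 2 it was -0.64 points (exact permutation p = 0.667, where 0.333 is the lowest possible). Among same-numbered libraries, WS minus NS was -1.49, -1.18 and 0.20 points. With 1 library left out, the difference ranged from -1.29 points without WS 3 (exact permutation p = 0.1, the lowest possible) to -0.46 without WS 2. With Hbb-b1 left out of the counts the share fell to 26.3% in NS 2 and 25.8% in WS 2, against 39.5% to 41.0% in the other 4. Put another way, Hbb-bs and Hbb-bt gave 0.357 and 0.348 counts per alpha count in NS 2 and WS 2 and 0.652 to 0.694 in the others. With Hbb-b1 added, the ratio of beta to alpha counts was 0.639 to 0.695 in all 6 libraries. Which beta haplotype the animals carried was not tested.

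The alpha and beta sums were then related across the 6 libraries, as 1 of 3 relations computed. Alpha and beta log2 CPM had a Pearson's r of 0.982 (exact permutation p = 0.00278, adjusted p = 0.00833) and a Spearman's rho of 0.943 (exact permutation p = 0.0167, adjusted p = 0.05). Without NS 1 and NS 3, the libraries farthest from the median alpha level, r was 0.946 over 4 libraries (exact permutation p = 0.0833). Without NS 2 and WS 2 it was 0.991, also over 4 libraries (exact permutation p = 0.0417, the lowest possible). With the group means removed r was 0.988, and leaving out 1 library at a time gave 0.968 to 0.992. With Hbb-b1 left out of the beta sum, r over the 6 libraries was 0.589, and NS 2 and WS 2 lay under the others. That value is a description without a test, since the set was chosen for the spread of Hbb-b1.

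**Figure D4:**
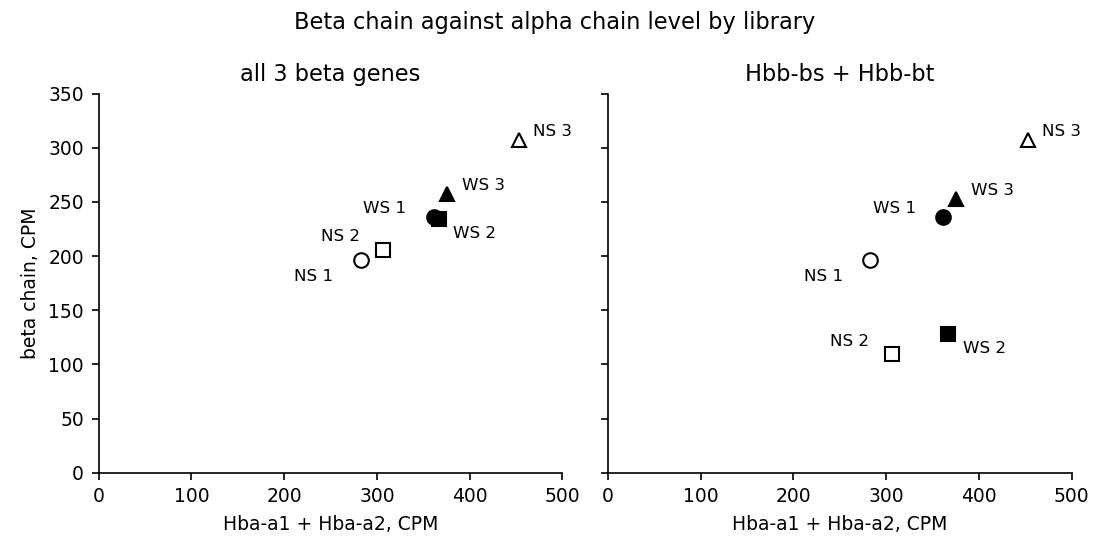
Summed beta chain CPM against summed alpha chain CPM, 1 point per library (open NS, filled WS), with all 3 beta genes on the left and with Hbb-bs and Hbb-bt only on the right. On the left the 6 libraries follow 1 line (r = 0.982 on log2 values), and on the right NS 2 and WS 2 drop to 109 and 128 CPM.

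Within the alpha pair, Hba-a1 and Hba-a2 had an r of 0.959 (exact permutation p = 0.00694, adjusted p = 0.0104) and a rho of 0.829 (p = 0.0583, adjusted p = 0.0875), with r at 0.818 without NS 1 and NS 3. These genes share nearly all coding bases, so this value may depend on how reads were split between them. Summed hemoglobin and Alas2 had an r of 0.784 (exact permutation p = 0.0653, adjusted p = 0.0653) and a rho of 0.771 (p = 0.103, adjusted p = 0.103), and r was 0.457 without NS 1 and NS 3. That relation did not pass the threshold.

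WS was then compared with NS, the contrast of the study, and no member passed the test in either direction. Across all 13747 genes tested by edgeR's quasi-likelihood test, 4 were called higher in WS and 0 lower (a log2 fold change beyond 1 in size at an adjusted p below 0.05), which is 0.0291% of genes, and 164 (1.19%) had an unadjusted p under 0.05. Of the 6 members, 0 were called, and 0 had an unadjusted p under 0.05. DESeq2 called 0 of the 5 members to which it gave a p, 0 of them at an unadjusted p under 0.05, and gave none to Hbb-b1. Against a background that low, 0 of 6 does not set the members apart from other genes.

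The alpha genes had the narrowest estimates among the chain genes. Hba-a1 averaged 210 ± 59.5 CPM in NS and 222 ± 9.95 CPM in WS (SD, n = 3), and the log2 fold change was 0.08 (SE 0.15, 95% interval -0.25 to 0.41). Hba-a2 averaged 137 ± 32.6 CPM in NS and 146 ± 4.32 CPM in WS, a log2 fold change of 0.09 (SE 0.13, 95% interval -0.20 to 0.38). Both intervals include 0.

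For the beta genes the intervals were wider. Hbb-bs averaged 177 ± 83.7 CPM in NS and 178 ± 58.0 CPM in WS, with a log2 fold change of 0.01 (SE 0.30, 95% interval -0.66 to 0.68). Hbb-bt averaged 26.9 ± 15.5 CPM in NS and 26.9 ± 9.82 CPM in WS, with a log2 fold change of 0.0007 (SE 0.35, 95% interval -0.77 to 0.77). For Hbb-b1 the log2 fold change of 0.20 had an SE of 1.46 and a 95% interval from -2.99 to 3.39, which includes changes of either sign. It was -3.73 without WS 2 and 6.72 without NS 2, since each group held 1 of the high libraries. With the replicate number as a block, which pairs those libraries, WS was higher in 3 of 3 pairs (3 and 5, 1545 and 1724, and 8 and 74 counts in NS and WS) and the log2 fold change was 0.59 (SE 0.24, unadjusted p = 0.0216), and edgeR's adjusted p stayed at 0.9999. Alas2 averaged 5.94 ± 0.729 CPM in NS and 6.05 ± 0.596 CPM in WS, with a log2 fold change of 0.03 (SE 0.16, 95% interval -0.32 to 0.37). The adjusted p was 0.9998 for all 6 members. Without both libraries numbered 2, 0 of the 5 members tested were called, and the log2 fold changes were -0.02 for Hba-a1, 0.02 for Hba-a2, -0.05 for Hbb-bs, -0.05 for Hbb-bt and -0.08 for Alas2.

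**Figure D5:**
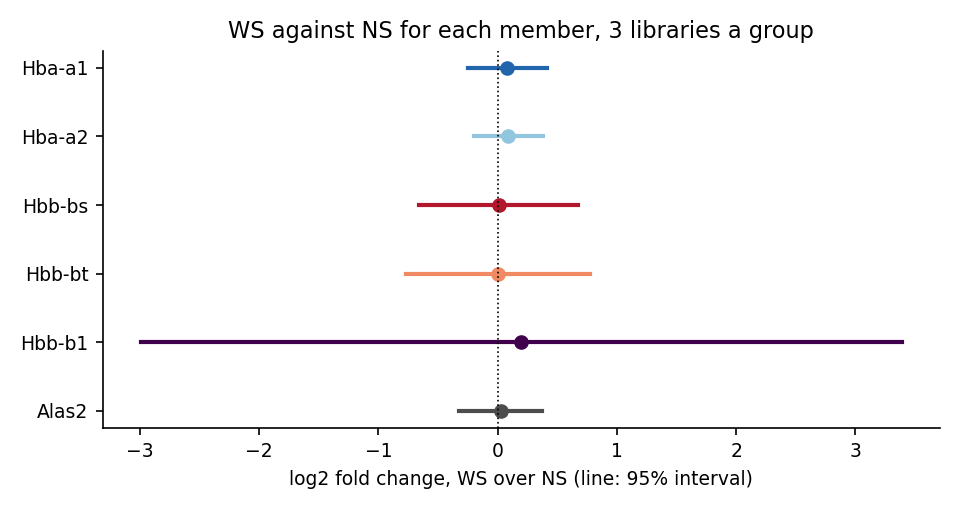
Log2 fold change of each member, WS over NS, from edgeR (points) with its 95% interval (lines), from 3 libraries a group. All 6 intervals include 0, and the interval of Hbb-b1 runs from -2.99 to 3.39.

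Summed over the 5 chain genes, hemoglobin made up 0.0479% to 0.0765% of the counts of a library. The sums were 479, 512 and 760 CPM in NS 1, 2 and 3 and 598, 601 and 633 CPM in WS 1, 2 and 3. The WS libraries lay close together and inside the NS range, with means of 610 ± 19.2 CPM in WS and 584 ± 154 CPM in NS (SD, n = 3). The mean log2 difference was 0.09 (exact permutation test, two-sided, p = 0.8, where 0.1 is the lowest possible). Among same-numbered libraries, WS minus NS was 0.32, 0.23 and -0.27 on the log2 scale. Leaving out NS 1 turned the direction (-0.032), and leaving out NS 3 raised the difference to 0.30 (exact permutation p = 0.1). That p is the lowest possible there, as all 3 WS sums lay above those of NS 1 and NS 2. Without both libraries numbered 2 it was 0.03 (exact permutation p = 1.0). In whole tissue, a change in the number of cells that hold hemoglobin RNA and a change in its amount per cell cannot be told apart.

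Of the 8 markers taken to define red cells, 3 were listed, and apart from Alas2 these were Slc4a1, the anion exchanger of the red cell membrane, and Klf1, the factor that drives adult beta chain transcription. Together Slc4a1 and Klf1 had 3, 2 and 6 counts in NS 1, 2 and 3 and 3, 6 and 12 counts in WS 1, 2 and 3. Hemoglobin counts thus reached 7599 to 12237 per library beside 12 or fewer counts of Slc4a1 and Klf1.

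Of the short sets of markers taken to define other blood cells, those listed had few counts. The longer lists given below hold genes with more counts, such as Gp1bb of the platelet list at 564 to 861. The platelet markers Pf4, Gp9 and Itga2b summed to 34 to 52 counts, the neutrophil markers S100a8 and S100a9 to 2 to 13, and the lymphocyte markers Cd79a and Cd79b to 6 to 24. In NS these sums were 2.12 to 3.28, 0.125 to 0.807 and 0.435 to 0.820 CPM, and in WS 2.59 to 3.03, 0.474 to 0.619 and 0.379 to 1.42 CPM, so all 3 overlapped between the groups. Endothelial markers (Cldn5, Cdh5, Flt1 and Ly6c1) summed to 132 to 154 CPM in NS and 142 to 163 CPM in WS. The part that vessel number or perfusion has in the hemoglobin values was not tested.

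Genes that handle heme and its iron were measured from lists of the pathway, and none was called. In 12 lists, which hold the 6 members and cover 86 genes tested, edgeR and DESeq2 called 0. An unadjusted p under 0.05 was given to 2 of the 86 by edgeR and to 2 of 85 by DESeq2, where the shares of all genes were 1.19% and 0.611%. The median log2 fold change over all genes tested was 0.0074, with 5% of genes below -0.17 and 5% above 0.26.

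All 9 enzymes of heme synthesis were tested. Of these, 3 had a positive and 6 a negative log2 fold change, with a median of -0.04 and a range of -0.13 to 0.24. Fech, which inserts the iron, had 937 to 1103 counts per library and Alas1, the form of the first enzyme that all cells use, had 947 to 1043. Cpox and Urod, enzymes of the middle steps, had 603 to 705 and 476 to 603 counts. The sum over the list differed by 1.04-fold between the lowest and the highest library, against 1.59-fold for the summed adult hemoglobin chains.

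Among genes of heme and iron handling, 11 were tested, with a median log2 fold change of 0.06 (range -0.15 to 0.20). The ferritin chain genes Fth1 and Ftl1, which store iron, had log2 fold changes of 0.03 (SE 0.08) and 0.07 (SE 0.09). Slc48a1, a heme transporter, and Tfrc, the transferrin receptor, had 0.11 (SE 0.08) and -0.02 (SE 0.12). Each of these 4 varied less between libraries than the 1.59-fold range of hemoglobin, and the summed list differed by 1.12-fold between libraries.

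For the list of red cell membrane and maturation genes, 12 of 23 were tested, and their median was 0.09. Add2, Sptb and Car2, among the most counted, had log2 fold changes of -0.05 (SE 0.08), 0.10 (SE 0.08) and 0.05 (SE 0.09). Neurons and glia are known to express these genes too, and they had 2425 to 5242 counts per library. Tal1, a blood and vessel factor named after its value was seen, had the largest value of the list, 0.80 (SE 0.36, edgeR adjusted p = 0.9998).

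Globins of other tissues had fewer counts than the alpha chain genes, and none was called. Cygb (cytoglobin) had 758 to 1011 counts and Ngb (neuroglobin) 104 to 163, with log2 fold changes of 0.17 (SE 0.09) and 0.03 (SE 0.16). The median of these 2 tested genes was 0.10. Hbq1b and Mb, the gene of myoglobin, had 5 to 17 and 1 to 7 counts and were not tested. The embryonic chains were not analysed here.

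The remaining lists hold markers of other blood cells, vessels and neighbouring tissue. The platelet list (5 genes tested) had a median of 0.19 and the neutrophil list (3 genes) a median of -0.24, while no gene of the lymphocyte or monocyte lists had enough counts to be tested. Gp1bb and Itgb3, the most counted of the platelet list, had 564 to 861 and 64 to 104 counts per library and log2 fold changes of 0.09 (SE 0.13) and 0.27 (SE 0.17). Csf3r of the neutrophil list had 87 to 111 counts and a log2 fold change of 0.13 (SE 0.15). Which cells the counts of Gp1bb, Itgb3 and Csf3r came from was not tested. All 18 vessel wall genes had positive log2 fold changes, with a median of 0.11 and a range of 0.0024 to 0.25, and 0 of 18 had an unadjusted p under 0.05. Among them, the pericyte gene Rgs5 had 0.10 (SE 0.13), Vtn 0.10 (SE 0.11), the endothelial transporter Slco1a4 0.09 (SE 0.13) and the endothelial marker Ly6c1 0.08 (SE 0.13).

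The list of meningeal and choroid plexus genes (11 tested) had a median of 0.02. Its most counted genes were Ptgds (0.08, SE 0.19), Igf2 (0.02, SE 0.15), Col1a2 (0.29, SE 0.12) and Kl (-0.15, SE 0.52). Kl had 251, 305 and 565 counts in NS 1, 2 and 3 and 70, 618 and 332 counts in WS 1, 2 and 3. In NS this is the order of the libraries in summed hemoglobin, and in WS it is not. The cortical cell list (10 tested) had a median of 0.08, with Mbp at 0.20 (SE 0.15), Slc1a2 at 0.06 (SE 0.11), Snap25 at -0.06 (SE 0.09) and Slc17a7 at -0.04 (SE 0.10).

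Genes whose level ran most like summed hemoglobin over the 6 libraries were found among 488 genes that averaged 50 counts or more and had an SD of log2 CPM of at least 0.3, as a description. The 8 highest Pearson's r belonged to Eif4ebp3 (0.949), Rdh5 (0.899), Plekhf1 (0.896), Pttg1 (0.872), Klf2 (0.858), Adam33 (0.851), Rab7b (0.845) and Sik1 (0.840). Klf2, a factor of the vessel lining, had 179, 216 and 310 counts in NS 1, 2 and 3 and 228, 263 and 318 counts in WS 1, 2 and 3. Eif4ebp3, which binds the cap-binding factor eIF4E, had 41, 40 and 72 counts in NS 1 to NS 3, beside 63, 54 and 54 in WS 1 to WS 3. NS 3 was the highest NS library for both, as for hemoglobin.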

How the data were processed

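RNA-seq was done on 6 libraries (3 NS, 3 WS). The study's methods state that rRNA reads and reads of poor quality were discarded and that the remainder was mapped by HISAT2, and the submitters' processing notes name the build mm10. The counting tool is not given in the sources used here. Per gene, the deposited table holds the mean of estimated counts over the libraries, without depth scaling by the authors, and the SD in counts. It also holds 1 z-score per library, a score that the authors made by subtracting the gene's mean and dividing by the SD. Columns of the authors' own comparisons were not used. The column of WS 3 bears an extra letter and was taken as that library because the authors' WS mean includes it.

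Counts were computed back as mean plus z-score times SD and rounded. Before rounding, 86.9% of values lay within 0.05 of a whole number, over 13418 genes. The design had been written for counts, so the count test was applied to these recovered values. WS was compared with NS in edgeR 4.0.16 (TMM, filterByExpr, quasi-likelihood test, Benjamini-Hochberg) on R 4.3.3, and in DESeq2 1.42.0. Scripts were tested on simulated data. CPM are scaled by TMM. Sums and shares were compared by exact permutation tests computed with NumPy 2.4.6, and SciPy 1.17.1 gave the rank correlations and Wilson intervals. Deviations of same-numbered libraries from their group means correlated across genes at 0.342, 0.228 and 0.124 for numbers 1, 2 and 3, so the numbers were treated as pairs in the replicate block. The members and lists were chosen with earlier results of these data known. Named were all members, up to 4 most counted genes per list (mean of at least 20 counts), any called gene, and the 8 genes most like summed hemoglobin. Of the genes this rule names, 1 is not reported here.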

Additional observations from a re-analysis of the deposited data

How the results depend on the processing

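The values of the members' comparison rest on few libraries. No member was called in any of the alternatives run (other scaling, no filter on low counts, DESeq2, replicate block, 1 library left out), and the replicate block changed no call of a member. It gave 6 called genes in place of 4 over all genes, a summed hemoglobin difference of 0.09 and a beta share difference of -0.82 points within pairs (exact permutation p = 0.75 and 0.5, where 3 pairs allow no p under 0.25). Leaving out both libraries numbered 2, an alternative chosen after seeing the data, gave 0 called genes by edgeR (138 at an unadjusted p under 0.05) and left Hbb-b1 untested.

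With 1 library left out, edgeR called 0 to 6 genes. The count was 0 without NS 2 (211 at an unadjusted p under 0.05) and 0 without NS 3 (190). Summed hemoglobin ranged from -0.032 to 0.30, the beta share difference from -1.29 to -0.46 points, and r of alpha with beta from 0.968 to 0.992. That r was 0.946 without the 2 libraries farthest from the median (exact permutation p = 0.0833) and 0.589 without Hbb-b1.

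Log2 fold changes of members turned sign in 26 of 77 values, the cause of which was not tested. For Hbb-bt they were -0.0021 with RLE size factors, -0.0069 with total counts, -0.0015 with members left out of the scaling, -4.02e-05 without a filter, -0.0019 with DESeq2 and -0.050 without both libraries numbered 2. The last also gave -0.048 for Hbb-bs, -0.018 for Hba-a1 and -0.081 for Alas2. Leaving out 1 library gave ranges of -3.73 to 6.72 for Hbb-b1, -0.29 to 0.41 for Hbb-bs, -0.31 to 0.55 for Hbb-bt, -0.062 to 0.33 for Hba-a1, -0.020 to 0.30 for Hba-a2 and -0.045 to 0.13 for Alas2. Counts of 3 to 8 for Hbb-b1 limit its low values.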

Other observations

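Some genes outside the members also stood apart in both libraries numbered 2, either higher or lower, and the genes here were named after their values were seen. Rpl34-ps1, a copy of the ribosomal protein gene Rpl34, had 7 and 29 counts in NS 2 and WS 2 and 826 to 974 in the other 4. Rpl34 itself had 1325 and 1490 counts in NS 2 and WS 2 and 718 to 843 in the others. The sum of the copies was 1332 to 1817. The translation factor genes Eif3j1 and Eif3j2 also differed in opposite directions. Eif3j2 had 15 and 21 counts in NS 2 and WS 2 and 261 to 353 in the others, and Eif3j1 had 777 and 825 against 389 to 506, while their sum stayed at 740 to 846. Pla2g4e, a phospholipase gene, had 202 and 182 counts in NS 2 and WS 2 and 494 to 543 in the others. The cause of these differences was not tested.

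Over the 490 genes compared with Hbb-b1, the imprinted gene Ndn had the most negative Pearson's r (-0.988), with 2201 and 2245 counts in NS 2 and WS 2 and 3072 to 3976 in the others. Same-numbered libraries also shared extremes at the other numbers. Both libraries lay over 1 log2 unit outside the range of the other 4 for 4 genes at number 1, 4 at number 2 and 2 at number 3, of 11999 genes with enough counts. With a gap of over 0.5 log2 units, these were 32, 12 and 20 genes, so number 2 had the fewest. The counts include members: Hbb-b1 was among the 4 and the 12 genes at number 2 and among the 32 at number 1. Hbb-bs and Hbb-bt were among the 12. At number 1 the genes over 1 log2 unit apart included Tuba1c, with 42 and 68 counts against 1207 to 2377, and Rpl29, with 1962 and 2490 counts against 57 to 125. What the shared number stands for was not tested.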
